A study of Mus musculus with 72 samples.

Results

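Hearts of mice exposed to 160 cGy of gamma rays from Cs-137 were compared with hearts of mice exposed to 40 cGy, with no sham heart on either side of the comparison. The members were taken by their labelled dose, which gave 4 hearts at 160 cGy and 5 hearts at 40 cGy, 9 of the 72 hearts in the series. The series measured how gamma rays, silicon ions and titanium ions at low dose go with gene expression in the mouse heart late after exposure. Total heart RNA was read on Clariom S Mouse arrays, and the values are log2 signals, so that a difference of 1 is a doubling of signal.

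Both groups were female CB6F1/Hsd mice, 100 to 120 days old when obtained, which received a single whole-body exposure shortly afterwards and were kept for 16 months until the hearts were snap-frozen. By the labels the groups differed in dose and, in part, in processing batch. The labels name each array a replicate without saying that each came from a separate mouse, while the methods of the study count animals per group. The p-values measure the spread between arrays within groups, taken from the 24 Cs arrays of the fit described below and not from the 9 alone. No source used here gives the hour at which the hearts were taken. The cardiomyocyte markers were well above background in the 9 hearts: Myh6, the main myosin heavy chain of the mouse heart, read 12.17 to 12.43 and Tnnt2, cardiac troponin T, read 12.33 to 12.62 over the 9 hearts.

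The molecular clock of heart cells is a feedback loop in which the protein of Arntl, also called BMAL1, pairs with CLOCK, binds E-box sequences and switches on Per, Cry and output genes, whose proteins in turn repress or retune the pair. Receptors of the ROR and REV-ERB families act on Arntl itself, and the loop sets a daily rhythm in how the heart burns fat. Long-chain fatty acids are the main fuel of the adult heart, and genes such as Cpt1a and Angptl4 are switched on by fatty acids through PPAR receptors.

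The arrays were processed in 2 batches named in the labels, and the 4 hearts at 160 cGy were all labelled batch 1, whereas 3 of the hearts at 40 cGy were labelled batch 1 and 2 were labelled batch 2. The difference between batches was therefore estimated from all 24 Cs arrays, with sham, 80 and 120 cGy hearts in the fit. Replicate 4 at 160 cGy stood apart: on the leading component of the 24 arrays (25.5% of the variance) it scored 19.9, among the batch 2 arrays (17.4 to 31.9), while the other 15 batch 1 arrays scored -20.2 to -6.58. The methods of the study describe a first batch with 3 samples of each condition and a second with 2. Labelled batch took up 81.4% of the variance of this component, and 94.2% with replicate 4 counted to batch 2. Whether its label is right was not tested. Each gene called and described singly below is given with and without replicate 4. As deposited, the median signal of 160 cGy replicate 1 was 4.38 and that of 40 cGy replicate 3 was 6.18, against 5.47 to 5.61 in the other 7 arrays, and the values were quantile normalized before any test. Of 19505 genes, 41.6 to 54.1% per array lay above the 90th percentile of the negative control probe sets, which is used below as the mark of a level clear of background.

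Expression differed between the 2 doses in 349 of 19505 genes (1.79%), of which 136 (0.697%) were higher and 213 (1.09%) lower at 160 cGy (limma, Benjamini-Hochberg adjusted p under 0.25, the threshold of the study's methods). At an adjusted p under 0.05 the calls were 3, all lower at 160 cGy: Mapkapk2, Mtch1 and Gpatch2l, a G-patch domain protein that fell by 0.60 (adjusted p = 0.0439; without 160 cGy replicate 4 0.0355) and is named here after its value was seen. At an unadjusted p under 0.05 there were 2130 genes (10.9%). The changes were small, with a median absolute log2 difference of 0.426 among the called genes and 4 beyond 1. Without 160 cGy replicate 4 the count was 702 (3.6%), of which 273 were among the 349, and with that heart counted to batch 2 it was 57 (0.292%), of which 54 were. Of the 39 called genes that the naming rule gave, 12 were called with it in batch 2: Scd4, Usp11, Ucn, Ipw, Vmn1r111, Btbd35f9 and Btbd35f20 higher and Arntl, Plau, Mapkapk2, Zfp940 and Ndufb6 lower. The count was 166 without 160 cGy replicate 1, 798 without replicate 3, and 142, 55, 217 and 182 without 40 cGy replicates 1, 2, 4 and 5. It was 433 without 160 cGy replicate 2 and 260 without 40 cGy replicate 3.

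The 349 genes kept their sign in each of the other fits in which they were tested, which share most of their hearts, except in the values as deposited, where 297 did and where the median of all genes lay at -0.39 between the groups. The 9 values of a gene did not overlap between the doses for 91 of the 349 genes (26.1%) against 348 of all genes (1.78%). Within batch 1 and without replicate 4, with 3 hearts a side, the values did not overlap for 307 of the 349 (88%) against 2972 of all genes (15.2%). Both counts describe genes chosen on the same values.

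**Figure D1:**
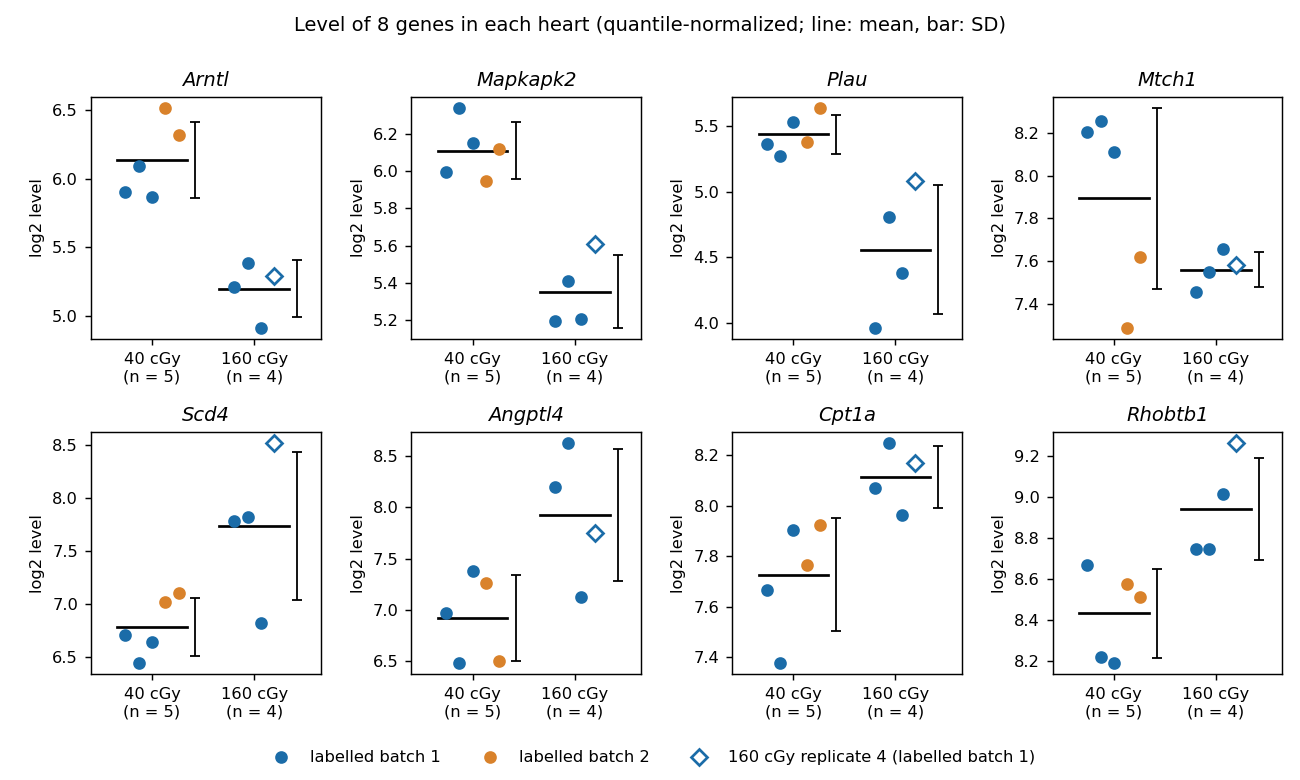
Log2 level (quantile normalized) of 8 genes in each heart at 40 cGy (5 hearts) and 160 cGy (4 hearts); each point is a heart coloured by its labelled batch, the diamond is 160 cGy replicate 4, the line is the group mean and the bar its SD. Arntl, Mapkapk2 and Plau were lower in each heart at 160 cGy than in any at 40 cGy, while Mtch1 separated the groups only within batch 1 and Scd4 and Angptl4 had 1 heart at 160 cGy inside the 40 cGy range.

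The clock gene Arntl was lower at 160 cGy. Its promoter window is shown because Arntl had the most negative fitted difference of the called genes, though its level at 160 cGy was under the background mark, with those of Per1 and Rhobtb1, the called clock members that rose. The windows run from 250 bases before to 50 after an annotated start and come from RefSeq on build GRCm38.p6, in the order Arntl (chr7:113207261-113207560, plus strand), Per1 (chr11:69098699-69098998, plus strand) and Rhobtb1 (chr10:69212407-69212706, plus strand). Capitals mark AGGTCA, the core of the ROR element, in Arntl and CACGTG, the E-box, in the other windows.
Arntl: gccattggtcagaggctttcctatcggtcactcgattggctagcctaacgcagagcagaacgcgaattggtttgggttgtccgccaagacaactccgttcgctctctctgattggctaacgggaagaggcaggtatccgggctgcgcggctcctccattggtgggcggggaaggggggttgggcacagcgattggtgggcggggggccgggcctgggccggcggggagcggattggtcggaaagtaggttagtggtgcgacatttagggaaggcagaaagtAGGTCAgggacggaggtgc
Per1: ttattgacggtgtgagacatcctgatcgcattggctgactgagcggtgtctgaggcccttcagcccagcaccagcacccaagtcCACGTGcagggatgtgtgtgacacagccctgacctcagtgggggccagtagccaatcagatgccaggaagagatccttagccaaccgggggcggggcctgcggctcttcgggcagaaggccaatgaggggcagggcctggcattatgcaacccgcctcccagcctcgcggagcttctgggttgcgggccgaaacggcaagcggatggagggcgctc
Rhobtb1: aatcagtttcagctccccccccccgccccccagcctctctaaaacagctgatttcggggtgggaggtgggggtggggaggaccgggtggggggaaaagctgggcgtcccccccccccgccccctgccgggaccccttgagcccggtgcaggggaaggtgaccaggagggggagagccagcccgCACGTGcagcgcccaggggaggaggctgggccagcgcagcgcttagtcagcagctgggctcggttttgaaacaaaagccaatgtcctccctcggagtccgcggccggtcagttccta
The match lay 31 bases after the start in Arntl (1 of 2 annotated starts), 166 bases before it in Per1 (1 of 2 starts) and 67 bases before it in Rhobtb1 (1 of 3 starts). Over both strands CACGTG occurred in 7.15% and AGGTCA or TGACCT in 16.3% of 32851 promoter windows of the same length, so a match describes the letters and no site.

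In replicate order, Arntl read 5.21, 5.39, 4.91 and 5.29 at 160 cGy and 5.90, 6.09, 5.87, 6.52 and 6.32 at 40 cGy. Each heart at 160 cGy lay below each heart at 40 cGy. The means were 5.20 ± 0.21 (SD, n = 4) and 6.14 ± 0.28 (SD, n = 5), and the difference, adjusted for batch like each difference below, was -0.93 (SE 0.17, limma adjusted p = 0.0503). Arntl was not above the background mark in any heart at 160 cGy and was above it in 4 of 5 at 40 cGy. With the mark as the floor at 160 cGy, its group mean, here not adjusted for batch, was at least 1.28-fold lower. The call held without 160 cGy replicate 4 (-0.96, adjusted p = 0.0315), with that heart in batch 2 (-0.93, adjusted p = 0.0675) and in each of the 9 fits with 1 heart left out. Arntl was not ordered by dose across the 4 irradiated groups: the batch-adjusted means were 6.13 at 40, 6.81 at 80, 5.34 at 120 and 5.20 at 160 cGy. Between the other doses, whose hearts were in neither dose group, Arntl at 120 cGy differed from 80 cGy by -1.47 (SE 0.15).

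Per1, a repressor of the loop that is also induced by light signals and glucocorticoids, read 7.09, 6.47, 7.40 and 7.38 at 160 cGy and 6.66, 6.40, 6.66, 7.08 and 7.02 at 40 cGy. The ranges overlapped, with 160 cGy replicate 2 near the low end of the 40 cGy hearts. The difference was 0.59 (SE 0.18, limma adjusted p = 0.242), and it was called in 1 of the 9 fits that left a heart out, that without 160 cGy replicate 2. Without the other 8 hearts in turn, replicate 4 included (0.49, adjusted p = 0.313), the adjusted p was 0.264 to 0.422. Rhobtb1, counted here among the clock outputs, read 8.75, 8.75, 9.02 and 9.27 at 160 cGy and 8.67, 8.22, 8.19, 8.58 and 8.52 at 40 cGy. The groups did not overlap for Rhobtb1. The difference was 0.64 (SE 0.18, adjusted p = 0.18), and the call was lost without 160 cGy replicate 4 (0.53, adjusted p = 0.26) and without 40 cGy replicates 2, 3, 4 or 5 (adjusted p 0.257 to 0.353).

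No other clock gene was called. Of 5 activators measured, Arntl alone was called, and Clock, its partner, differed by -0.14 (adjusted p = 0.62; without 160 cGy replicate 4 -0.05) and Npas2, which can stand in for Clock, by 0.00 (adjusted p = 0.999; without it -0.11). Of 10 repressors, 1 was called and 7 had a positive difference, with a median of 0.17 against -0.01 over all genes. Ciart, a repressor of the pair, had the largest difference of these at 0.69 (adjusted p = 0.286), and Per2 and Per3 differed by 0.18 and 0.25 (adjusted p 0.691 and 0.701). Of 9 outputs, 1 was called and 8 had a positive difference, with a median of 0.21. Over all genes 1.79% were called and 48.8% had a positive difference. Dbp, a transcription factor driven by E-boxes, read 10.77 to 11.10 at 160 cGy and 10.72 to 10.94 at 40 cGy (adjusted p = 0.706). Nfil3, which opposes Dbp on the same target sites, differed by -0.37 (adjusted p = 0.305). Without 160 cGy replicate 4 the medians were 0.06 for the repressors and 0.15 for the outputs.

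**Figure D2:**
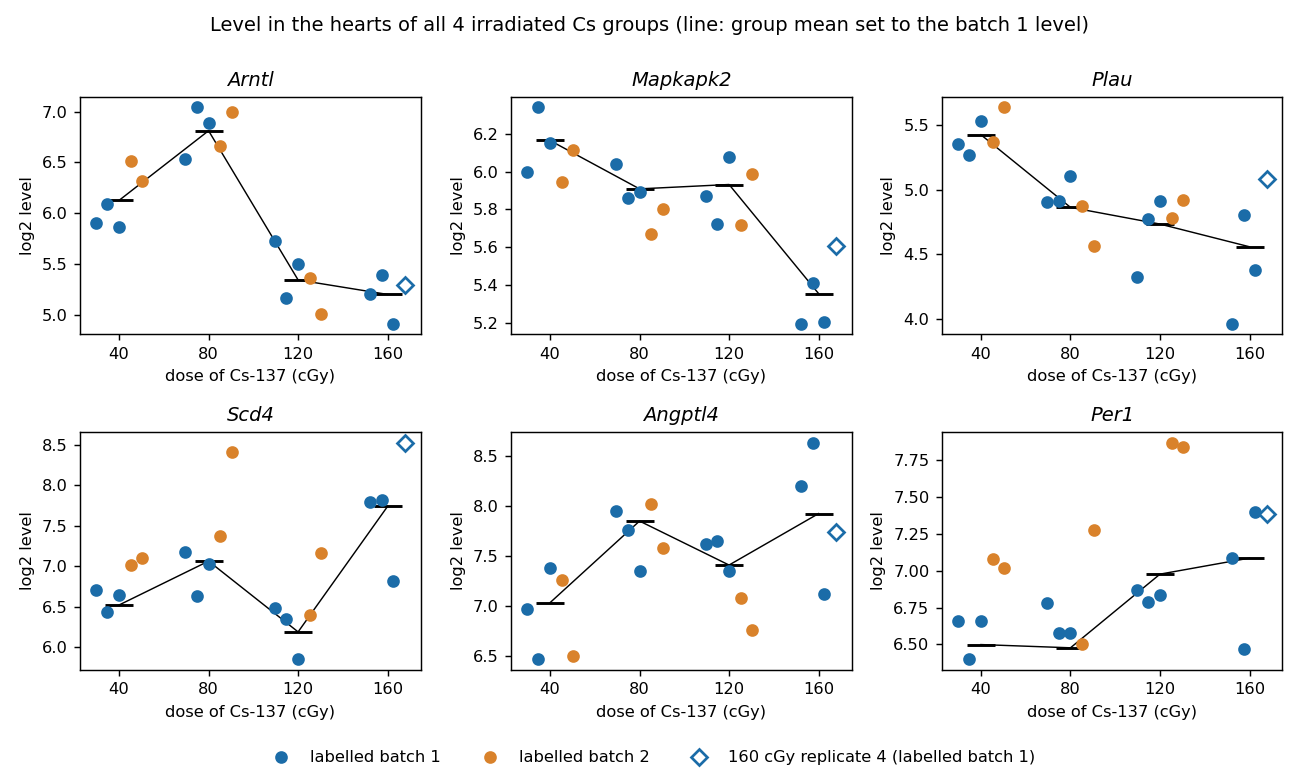
Log2 level (quantile normalized) of 6 genes against dose in cGy in the 19 irradiated Cs hearts; points are hearts coloured by labelled batch, the diamond is 160 cGy replicate 4 and the line joins the group means set to the batch 1 level. Arntl was highest at 80 cGy and low at 120 and 160 cGy, Mapkapk2 was lowest at 160 cGy, Plau was ordered by dose, and Scd4 was lowest at 120 cGy.

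The smallest p of the comparison belonged to Mapkapk2, the kinase MK2 that acts below p38 in stress signaling and steadies inflammatory messenger RNAs. It read 5.19, 5.41, 5.20 and 5.61 at 160 cGy and 6.0, 6.34, 6.15, 5.94 and 6.12 at 40 cGy. The groups did not overlap. The difference was -0.81 (SE 0.11, limma adjusted p = 0.00195), and it stayed past the threshold without 160 cGy replicate 4 (-0.90, adjusted p = 0.000537), with that heart in batch 2 (-0.77, adjusted p = 0.00647) and in each fit that left 1 heart out (adjusted p up to 0.0197). Mapkapk2 was above the background mark in 5 of 5 hearts at 40 cGy and 1 of 4 at 160 cGy. At 80 and 120 cGy its batch-adjusted means were 5.91 and 5.93, between 6.17 at 40 and 5.35 at 160 cGy.

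Plau, the urokinase that activates plasminogen in matrix turnover, read 3.96, 4.80, 4.38 and 5.08 at 160 cGy and 5.36, 5.27, 5.53, 5.37 and 5.64 at 40 cGy. The groups did not overlap, but Plau was above the background mark in 1 of the 9 hearts, so no fold is given. Its difference had an adjusted p of 0.0981 in limma and of 0.0266 without 160 cGy replicate 4, and the call held in each fit that left 1 heart out. Its batch-adjusted means were ordered by dose, at 5.43, 4.86, 4.73 and 4.56 from 40 to 160 cGy. Plau was the only call, lower at 160 cGy, among 17 measured genes of the secreted inflammatory factors of senescence. Over all genes 1.09% were called lower. The median difference was -0.10 on the list and -0.01 over all genes.

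Mtch1, a protein of the outer mitochondrial membrane, read 7.46, 7.55, 7.65 and 7.58 at 160 cGy and 8.20, 8.26 and 8.11 in the batch 1 hearts at 40 cGy. In the batch 2 hearts at 40 cGy it read 7.29 and 7.62, within or below the range at 160 cGy. The groups thus separated within batch 1 only, and the batches differed by -0.70 for this gene. The difference was -0.61 (SE 0.09, limma adjusted p = 0.00705) and -0.62 without 160 cGy replicate 4 (adjusted p = 0.0144). With that heart counted to batch 2 the difference was -0.42 and not called (adjusted p = 0.298).

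Of the 12 largest falls among called genes, Gpr22, Dock11 and Prpf38a were also above the background mark in several hearts. Gpr22, an orphan receptor of heart muscle, read 8.49, 8.81, 8.68 and 7.72 at 160 cGy and 8.79, 9.03, 9.20, 8.30 and 8.97 at 40 cGy, with the low values in 160 cGy replicate 4 and in a batch 2 heart. Its difference was -0.68 (SE 0.19, limma adjusted p = 0.176) and -0.45 without replicate 4 (adjusted p = 0.266). The call was also lost without 160 cGy replicate 1 or 40 cGy replicates 2, 3 or 5 (adjusted p 0.264 to 0.284). Dock11, an exchange factor for small GTPases, fell by 0.68 (SE 0.17, adjusted p = 0.131; without replicate 4 0.106), with the call lost without 160 cGy replicate 1 or 40 cGy replicate 2 (adjusted p 0.26 and 0.265). Prpf38a, a spliceosome component, fell by 0.65 (SE 0.20, adjusted p = 0.239; without replicate 4 0.152) and was called in 2 of the 9 fits that left a heart out, those without 160 cGy replicates 3 and 4, and otherwise had an adjusted p of 0.255 to 0.422.

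Among the genes called higher were 4 list members that handle fat, which were Scd4, Angptl4, Cpt1a and Acot2. Scd4, a stearoyl-CoA desaturase that makes monounsaturated fatty acids, had the largest rise of any called gene clear of background. It read 7.79, 7.82, 6.82 and 8.52 at 160 cGy and 6.70, 6.44, 6.64, 7.02 and 7.10 at 40 cGy. All but 160 cGy replicate 3 lay above the 40 cGy hearts, and replicate 4 was the highest. The difference was 1.22 (SE 0.27, limma adjusted p = 0.0981), a 2.33-fold rise, and 0.96 without replicate 4 (adjusted p = 0.141). The call held in each fit that left 1 heart out, with adjusted p up to 0.24. Scd4 was not ordered by dose, since the batch-adjusted mean at 120 cGy (6.19) was below that at 40 cGy (6.52). The other 13 measured genes of fatty acid and sterol synthesis gave no call, where 1.79% of all genes were called, and the median of the 14 was -0.06.

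Angptl4, a secreted inhibitor of lipoprotein lipase, read 8.19, 8.63, 7.13 and 7.74 at 160 cGy and 6.97, 6.48, 7.38, 7.26 and 6.50 at 40 cGy. Only 160 cGy replicate 3 lay inside the 40 cGy range. The difference was 0.89 (SE 0.26, limma adjusted p = 0.216), a 1.85-fold rise, and 0.95 without 160 cGy replicate 4 (adjusted p = 0.189). With that heart counted to batch 2 it was 0.96 and not called (adjusted p = 0.261), and the call was lost without 160 cGy replicates 1 or 2 or 40 cGy replicates 1, 2 or 5 (adjusted p 0.308 to 0.442).

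Cpt1a, which loads long-chain fatty acids for entry into mitochondria, read 8.07, 8.25, 7.96 and 8.17 at 160 cGy and 7.67, 7.38, 7.90, 7.77 and 7.92 at 40 cGy. The groups did not overlap, by a narrow margin. The difference was 0.48 (SE 0.12, limma adjusted p = 0.141), a 1.40-fold rise, 0.47 without 160 cGy replicate 4 (adjusted p = 0.164) and 0.42 with it in batch 2 (adjusted p = 0.315), and the call was lost without 40 cGy replicate 2 (adjusted p = 0.341). Acot2, a mitochondrial thioesterase of acyl-CoA, read 10.08, 10.31, 9.95 and 10.47 at 160 cGy, above 9.76, 9.62 and 9.77 in batch 1 at 40 cGy but below 10.72 and 10.66 in batch 2. Its difference of 0.47 (SE 0.14, adjusted p = 0.208) was called in 1 of the 9 fits that left a heart out, that without 160 cGy replicate 3, and without replicate 4 it was 0.38 (adjusted p = 0.281). Without the other hearts the adjusted p was 0.257 to 0.393.

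These were the 3 calls, all higher at 160 cGy, among 22 measured genes of fasting and fat oxidation, of which 18 had a positive difference and the median was 0.09. Over all genes 0.697% were called higher and 48.8% had a positive difference. With 160 cGy replicate 4 counted to batch 2 the list had 0 calls and a median of 0.02. Without 160 cGy replicate 4, 3 members were called, Cpt1a, Angptl4 and Ppargc1a, a coactivator of mitochondrial genes (0.30, adjusted p = 0.211), and the median was 0.06. Ucp3, a mitochondrial carrier induced by fatty acids, had the largest difference of the list at 1.03 and was not called (adjusted p = 0.277), and Pdk4, which spares glucose, differed by 0.52 (adjusted p = 0.589). The enzymes of the oxidation spiral lay close to 0, at 0.02 for Acadl and 0.00 for Hadha. In each heart the mean level of the list was 9.49, 9.57, 9.35 and 9.59 at 160 cGy, against 9.27, 9.16 and 9.29 in batch 1 and 9.57 and 9.50 in batch 2 at 40 cGy. The batch 2 hearts at 40 cGy thus lay at the level of the hearts at 160 cGy.

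**Figure D3:**
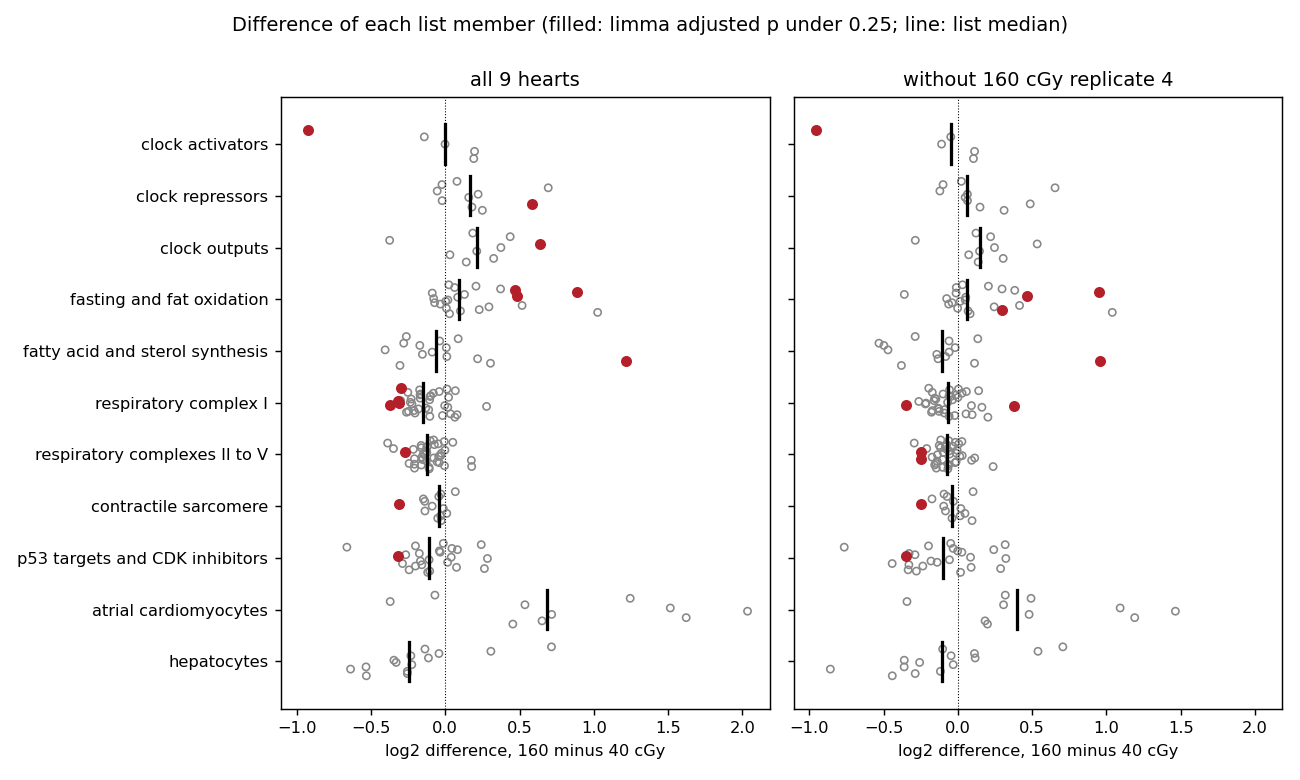
Log2 difference (160 minus 40 cGy) of each measured member of 11 gene lists, with the 9 hearts on the left and without 160 cGy replicate 4 on the right; filled points had a limma adjusted p under 0.25 and the black line is the list median. The median of complex I was -0.15 with and -0.06 without replicate 4, and that of the atrial genes was 0.68 and 0.40 with no member called.

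Most measured subunits of the respiratory chain had a negative difference, whose size moved with replicate 4. Over all genes 51.2% had a negative difference and 1.09% were called lower. Of 36 measured subunits of complex I, which passes electrons from NADH to ubiquinone, 4 were lower (Ndufb6, Ndufb2, Ndufb4 and Ndufa1), 28 had a negative difference and the median was -0.15. Without replicate 4 the median was -0.06 and 2 members were called, Ndufb6 lower and Ndufb8 higher (0.38, adjusted p = 0.188). Ndufb6, an accessory subunit, read 9.58, 9.53, 9.76 and 9.53 at 160 cGy, 9.99 to 10.08 in batch 1 at 40 cGy, and 9.57 and 9.63 in batch 2. Its difference was -0.37 (SE 0.08, limma adjusted p = 0.0981) and -0.35 without replicate 4 (adjusted p = 0.0743), and the call held in each fit that left 1 heart out. Ndufb2, Ndufb4 and Ndufa1, also accessory subunits, fell by 0.32, 0.31 and 0.30 (adjusted p 0.21, 0.197 and 0.239) and were not called without replicate 4 (adjusted p 0.271, 0.28 and 0.342). For these 3 genes the call was also lost without 160 cGy replicate 2 or any heart at 40 cGy, with adjusted p up to 0.419.

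By heart, the mean level of complex I was 10.18, 10.14 and 10.19 in 160 cGy replicates 1 to 3 and 9.89 in replicate 4. It was 10.25, 10.22 and 10.21 in the batch 1 hearts at 40 cGy and 9.95 and 9.92 in the batch 2 hearts. Replicate 4 therefore lay with batch 2 in this list as on the leading component. Of 38 measured genes of complexes II to V, 35 had a negative difference, the median was -0.12, and Cox5a, a subunit of cytochrome c oxidase, was called (-0.27, SE 0.07, adjusted p = 0.153; without replicate 4 -0.25, adjusted p = 0.174). The Cox5a call was lost without 160 cGy replicate 1 or 40 cGy replicates 1 or 2 (adjusted p 0.264 to 0.297). The median without replicate 4 was -0.07.

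Of 13 measured sarcomere genes, 1 was called, against 1.79% of all genes. The called gene was Myl3, the essential myosin light chain of the ventricle. It read 11.65, 11.66, 11.67 and 11.42 at 160 cGy and 11.87, 11.97, 11.84, 11.67 and 11.76 at 40 cGy, and the groups did not overlap, with the highest heart at 160 cGy against the lowest at 40 cGy at the same 2 decimals. The difference was -0.31 (SE 0.08, limma adjusted p = 0.131) and -0.25 without replicate 4 (adjusted p = 0.181), and the call was lost without 40 cGy replicate 2 (adjusted p = 0.282). Myh6, Tnnt2 and Tnni3 differed by -0.04, -0.03 and 0.01 (adjusted p 0.876, 0.921 and 0.974). Nppb, a natriuretic peptide raised in cardiac stress, differed by -0.09 (adjusted p = 0.928).

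**Figure D4:**
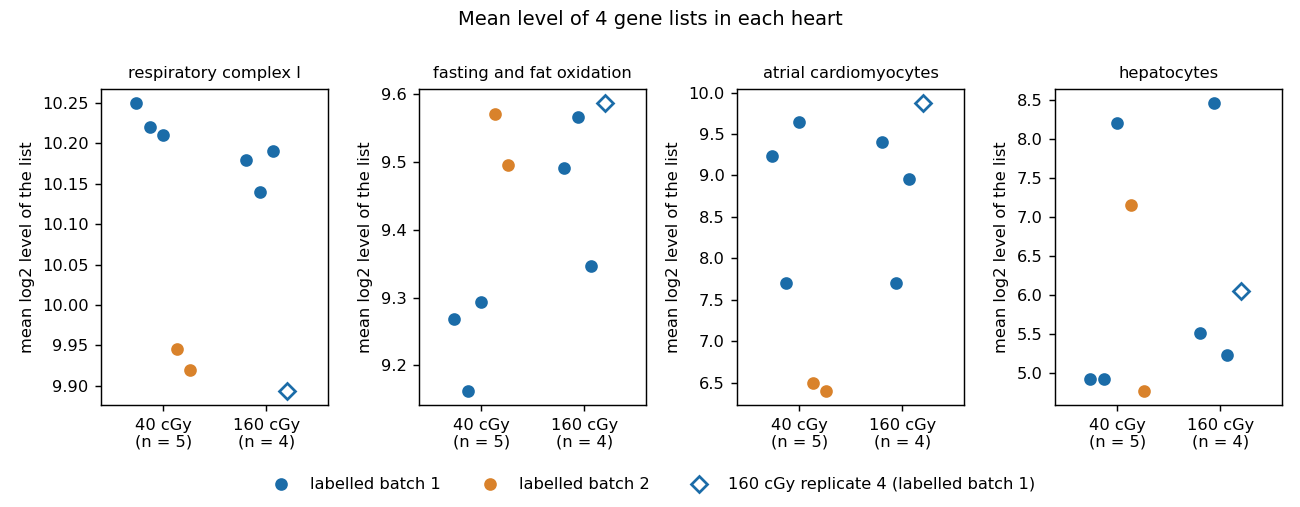
Mean log2 level of 4 gene lists in each heart at 40 cGy (5 hearts) and 160 cGy (4 hearts); points are hearts coloured by labelled batch and the diamond is 160 cGy replicate 4. In complex I replicate 4 (9.89) lay with the batch 2 hearts (9.92 and 9.95), and the atrial and hepatocyte lists spread widely within both groups.

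Markers of other tissues varied widely between hearts, and in whole hearts fewer cells of a type and less RNA per cell cannot be told apart. The mean level of 10 atrial genes was 9.41, 7.71, 8.96 and 9.88 at 160 cGy and 9.23, 7.71, 9.65, 6.50 and 6.41 at 40 cGy, so the 2 batch 2 hearts at 40 cGy were the lowest. Myl7, the atrial myosin light chain, had the largest difference of any gene at 2.03, with a range of 7.48 to 11.53 at 160 cGy and 3.75 to 10.68 at 40 cGy (limma adjusted p = 0.573), and differed by 1.46 without 160 cGy replicate 4. Of the 10 atrial genes 8 had a positive difference, none was called and 2 had an unadjusted p under 0.05 in limma. Over all genes 48.8% had a positive difference and 10.9% had an unadjusted p under 0.05. The mean level of 14 hepatocyte genes ranged from 5.23 to 8.46 at 160 cGy and from 4.78 to 8.20 at 40 cGy, with 1 heart high at 160 cGy (8.46) and 2 at 40 cGy (8.20 and 7.16), and Alb, serum albumin, was not called (-0.14, adjusted p = 0.986). White adipocyte genes were highest in 160 cGy replicate 4, at 7.33 against 5.76 to 6.20 in the other 8 hearts, with Lep and Retn under the background mark in the 9 hearts. The part of these tissues in the called genes was not tested.

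On the lists of other heart cells and chemokines 3 genes were called, against 1.79% of all genes. They were Cd34 of 14 measured endothelial genes, Cd248 of 10 fibroblast genes and Ccl6 of 19 chemokines. Cd34, a surface protein of endothelium and progenitors, read 9.29, 9.21, 9.42 and 9.36 at 160 cGy, 9.67, 9.64 and 9.70 in batch 1 at 40 cGy, and 9.32 and 9.41 in batch 2. It fell by 0.34 (SE 0.09, limma adjusted p = 0.131; without 160 cGy replicate 4 0.115), and the call was lost without 40 cGy replicate 2 (adjusted p = 0.26). It was 1 of 14 measured endothelial genes, of which Pecam1, Cdh5 and Kdr differed by 0.15, 0.06 and -0.04 (adjusted p 0.694, 0.88 and 0.922). Cd248, a fibroblast and pericyte surface protein, read 6.42 to 6.79 at 160 cGy and 6.69 to 7.15 at 40 cGy (-0.42, SE 0.12, adjusted p = 0.191; without replicate 4 adjusted p = 0.24). Ccl6, a chemokine of myeloid cells, differed by -0.46 (SE 0.14, adjusted p = 0.235; without replicate 4 adjusted p = 0.239). The Cd248 call was lost without 160 cGy replicate 1 or 40 cGy replicates 1, 3, 4 or 5 (adjusted p 0.269 to 0.344), and the Ccl6 call was lost without 160 cGy replicates 1 or 2 or any heart at 40 cGy (adjusted p 0.281 to 0.362). No member was called on the lists of macrophages (16 measured), platelets and neutrophils (12), red blood cells (4), B cells (6), T cells (10) or smooth muscle (12).

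On the lists of p53 targets (24 measured), DNA repair (21) and antioxidant defence (26), 2 genes were called, Ei24 and Prdx1, against 1.79% of all genes. Cdkn1a, the p53 target that halts the cell cycle, read 6.54, 7.02, 6.40 and 7.07 at 160 cGy and 6.67, 7.30, 7.48, 9.03 and 8.21 at 40 cGy, with the high values in the batch 2 hearts. Its difference was -0.66 (SE 0.29, limma adjusted p = 0.395) and -0.77 without 160 cGy replicate 4 (adjusted p = 0.324). Of 24 measured p53 targets and cell cycle inhibitors, 16 had a negative difference, the median was -0.11 and Ei24, an endoplasmic reticulum protein induced by p53, was called. Over all genes 51.2% had a negative difference and 48.8% a positive one. Ei24 read 7.67, 7.48, 7.69 and 7.74 at 160 cGy and 7.95, 8.09, 8.00, 7.77 and 7.87 at 40 cGy, without overlap (-0.31, SE 0.09, adjusted p = 0.18; without replicate 4 -0.35, adjusted p = 0.134). The Ei24 call was lost without 160 cGy replicates 1 or 2 or 40 cGy replicates 1, 2, 3 or 5 (adjusted p 0.257 to 0.393). Mdm2, which degrades p53, differed by -0.17 (adjusted p = 0.49) and Ccng1, a p53 target, by -0.20 (adjusted p = 0.341). None of 21 DNA repair genes was called, and 2 of them had an unadjusted p under 0.05 in limma, against 10.9% of all genes. Among 26 genes of antioxidant defence, Prdx1, a peroxidase of hydrogen peroxide, was called (-0.28, SE 0.08, adjusted p = 0.176; without replicate 4 adjusted p = 0.227), while 18 of the 26 had a positive difference. The Prdx1 call was lost without 160 cGy replicate 1 or 40 cGy replicates 1, 2, 3 or 4 (adjusted p 0.251 to 0.311).

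Of the 12 largest rises among called genes, Usp11, Isg20 and Ucn were above the background mark in 3 or more of the 9 hearts, besides Scd4, Angptl4 and Rhobtb1. Usp11, a deubiquitinase, read 5.88, 5.72, 5.86 and 6.89 at 160 cGy and 5.45, 5.38, 5.08, 6.24 and 5.78 at 40 cGy, with the high values in replicate 4 and in a batch 2 heart. Its difference was 0.80 (SE 0.20, limma adjusted p = 0.131) and 0.54 without replicate 4 (adjusted p = 0.181), and the call was lost without 40 cGy replicate 2 (adjusted p = 0.253). Isg20, an exonuclease induced by interferon, read 5.85, 6.97, 6.63 and 6.79 at 160 cGy and 5.79, 5.79, 5.58, 6.59 and 6.14 at 40 cGy. Its difference was 0.79 (SE 0.21, adjusted p = 0.168; without replicate 4 0.71, adjusted p = 0.218). The Isg20 call was lost without 160 cGy replicate 2 or 40 cGy replicates 1, 2, 3 or 5 (adjusted p 0.257 to 0.288). None of 23 measured genes on the list of interferon-stimulated genes was called, against 1.79% of all genes. Ucn, the stress peptide urocortin, read 7.41, 6.46, 6.75 and 6.14 at 160 cGy and 6.03, 5.83, 6.18, 5.94 and 5.94 at 40 cGy. Its difference was 0.65 (SE 0.17, adjusted p = 0.144; without replicate 4 0.84, adjusted p = 0.0266), and the call was lost without 160 cGy replicate 1 or 40 cGy replicates 1 or 2 (adjusted p 0.253 to 0.316).

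Many called genes lay near background, though a smaller share than of all genes. Of the 136 genes called higher, 49 were above the background mark in none of the 9 hearts, and of the 213 called lower, 42 were. Together these were 91 of the 349 (26.1%), against 8562 of all genes tested (43.9%). Among the 136, 31 belonged to the Btbd35f, vomeronasal receptor or olfactory receptor families (22.8%), against 4 among the 213 (1.88%) and 1434 of all genes tested (7.35%). These families are on none of the gene lists. The Btbd35f genes are near-identical copies on the X chromosome, so probes may not tell them apart and their counts may repeat the same signal. Of 22 measured, 7 were called, against 1.79% of all genes, and 15 without 160 cGy replicate 4, against 3.6%. A positive difference was found in 21, against 48.8% of all genes, and none was above the background mark in any of the 9 hearts. Btbd35f9 read 5.08, 4.57, 5.31 and 4.02 at 160 cGy and 3.68, 3.75, 4.03, 3.82 and 3.17 at 40 cGy, and no fold is given for it. Its difference had a limma adjusted p of 0.126, and of 0.0266 without 160 cGy replicate 4. The mean of the family was lowest at 160 cGy in replicate 4, at 2.86 against 3.51 to 3.89 in replicates 1 to 3. The noncoding RNA Ipw, the receptor Vmn1r111, Rps23rg1, Sphkap and Btbd35f20 also had a rise among the 12 largest at or near that level. On the lower side Cenpq, a kinetochore protein, Zfp472 and Zfp940, both zinc finger proteins, the potassium channel Kcnn4 and Smim3, a small membrane protein, were above the mark in at most 1 of the 9 hearts, as was Top2a, the topoisomerase of dividing cells (4.76, 4.93, 4.55 and 4.38 at 160 cGy and 5.02, 5.25, 5.53, 4.58 and 5.17 at 40 cGy). Of these 12 genes at low level Zfp940 alone kept its call in each fit that left 1 heart out. The other 11 lost it without 40 cGy replicate 2 and in up to 6 further fits (adjusted p 0.252 to 0.419). Sphkap and Top2a also lost it without 160 cGy replicate 4. The Top2a difference had a limma adjusted p of 0.232, and of 0.298 without that heart.

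The hearts at 80 and 120 cGy show where the called genes lay between the end doses. Batch-adjusted means at both 80 and 120 cGy lay between those of the end doses for 218 of the 349 (62.5%), against 3873 of all genes (19.9%). The 4 means were in dose order for 92 of the 349 (26.4%), against 1820 of all genes (9.33%). In both counts the end doses had themselves chosen the 349 genes. The hearts at 80 and 120 cGy were in neither dose group but entered the fit through the batch term and the spread, and 120 minus 80 cGy had the same sign as 160 minus 40 cGy for 124 of the 349 (35.5%), against 9315 of all genes (47.8%). The slope over 40, 80, 120 and 160 cGy was called for 114 genes (0.584%), 48 rising and 66 falling, and it shares the end doses with the comparison. Arntl and Mapkapk2 had the slope called with adjusted p of 0.000707 and 0.00235 (0.00169 and 0.00116 without 160 cGy replicate 4). Per1 and Rhobtb1 had a rising slope called (limma adjusted p 0.216 and 0.216). Without replicate 4 the values were 0.249 and 0.251, so that the Rhobtb1 call was lost. With that heart in batch 2 they were 0.411 and 0.342, and neither was called. The batch-adjusted means from 40 to 160 cGy were 8.30, 8.35, 8.64 and 8.94 for Rhobtb1. For Per1 they were 6.50, 6.48, 6.98 and 7.09, so Per1 did not rise from 40 to 80 cGy. Scd4 and Angptl4 gave no slope call (adjusted p 0.276 and 0.383). The slope count was 327 without 160 cGy replicate 4 and 21 with that heart counted to batch 2.

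**Figure D5:**
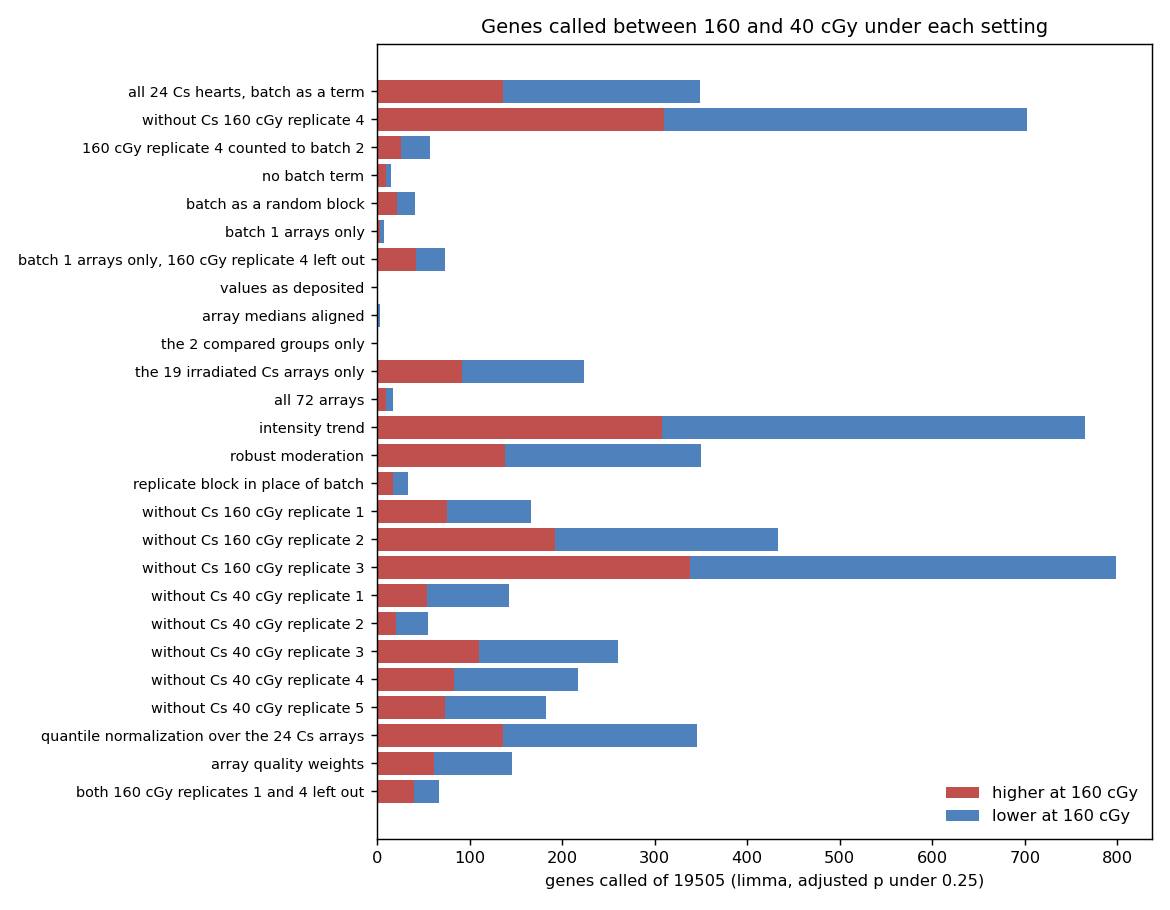
Number of genes called between 160 and 40 cGy (limma adjusted p under 0.25) under each setting that tested all 19505 genes, split into higher and lower at 160 cGy. Settings that removed dim genes are not drawn. The bars ran from 0 with the 2 compared groups alone to 798 without 160 cGy replicate 3.

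The study names 20 genes as common to its radiation types or to its Cs doses, a list chosen on these and other hearts of the series and so not independent of them. Between 160 and 40 cGy 1 of the 20, Arntl, was called, against 1.79% of all genes. Of the 20, 10 had a positive difference, against 48.8% of all genes. Tcap, the titin cap of the Z-disc, read 10.64, 10.77, 10.67 and 10.87 at 160 cGy and 10.49, 10.30, 10.42, 10.63 and 10.69 at 40 cGy and just missed the threshold (0.27, SE 0.09, limma adjusted p = 0.252; without replicate 4 adjusted p = 0.301). Adam19, a metalloprotease of the developing heart, differed by 0.35 (SE 0.11, adjusted p = 0.257; without replicate 4 0.369). Spon2, a secreted matrix protein, differed by -0.13 (adjusted p = 0.836), Pik3ip1, an inhibitor of PI3 kinase, by -0.01 (adjusted p = 0.989), and Bhlhe41, a clock repressor, by -0.02 (adjusted p = 0.968). The other 14 had differences between -0.66 and 0.33 and adjusted p of 0.395 to 0.966.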

How the data were processed

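The authors made the deposited log2 signals of 72 Clariom S Mouse arrays with RMA, which corrects background, takes log2 and normalizes by quantiles (version not given in the sources used here). Array medians still differed, so the values were quantile normalized again over 22206 non-control probe sets with limma 3.58.1 in R 4.3.3. The brightest probe set per symbol gave 19505 genes, and background came from 5222 negative control probe sets. The number of arrays limits the precision.

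Dose, batch and replicate came from the labels. The 24 Cs arrays were fitted with exposure group and batch as terms, and every adjusted p is two-sided, from limma with Benjamini-Hochberg adjustment over all genes, called under 0.25. The fit was tested on simulated data. Named genes are the 12 largest rises and 12 largest falls among called genes above the negative control median in at least 1 array of each group (44 of 349 failed this), called members of 41 gene lists, and 20 genes the study names. Members and lists were chosen with earlier results of these data known. Same-numbered hearts did not deviate together (residual correlations of 0.158, -0.199, -0.192 and -0.118). Alternatives covered scaling, batch, the arrays fitted, moderation, dim genes and each heart left out, and those added after seeing the data are named as such.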

Additional observations from a re-analysis of the deposited data

Results flagged for a closer look

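In 3 of the 116 sets of hearts examined (58 named genes in 2 dose groups), 1 heart lay far from the rest of its group, where chance gives about 1 in 20 sets, or 5.8. All 3 were 160 cGy replicate 4, the heart labelled batch 1 that lay with batch 2 on the leading component. The deubiquitinase gene Usp11 read 6.892 in that heart and 5.719 to 5.884 in the other hearts at 160 cGy. Sphkap, which encodes an anchoring protein for protein kinase A, read 5.553 against 5.073 to 5.147. Myl3, the ventricular myosin light chain, read 11.42 against 11.65 to 11.67. The differences with and without that heart are given above for Usp11 and Myl3, and Sphkap differed by 0.64 with it (limma adjusted p = 0.214) and by 0.54 without it (adjusted p = 0.282).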

How the results depend on the processing

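The count of called genes, 349 with all 24 Cs hearts, depended on the fit. Leaving out 1 heart at a time gave 55 to 798 calls: 166, 433, 798 and 702 without 160 cGy replicates 1 to 4, and 142, 55, 260, 217 and 182 without 40 cGy replicates 1 to 5. Replicate 4 at 160 cGy counted to batch 2 gave 57, no batch term 15, batch as a random block 41, batch 1 arrays alone 7, and batch 1 arrays without replicate 4 73, where the same fit in both batches gave 702. The values as deposited gave 1 call (1 higher, 0 lower) and aligned array medians 3 (0 higher, 3 lower), against 136 higher and 213 lower after quantile normalization, and the all-gene median moved to -0.39 as deposited. The 2 compared groups alone gave 0 calls (1339 genes at an unadjusted p under 0.05 in limma), the 19 irradiated hearts 224 and all 72 arrays 17. An intensity trend gave 765, genes brighter than log2 5 in at least 4 of the 9 hearts 961 of 11439, and an adjusted p under 0.05 gave 3. Chosen after seeing the data, array weights gave 146, genes above background only 1119 of 9227, and leaving out 160 cGy replicates 1 and 4 gave 67. Robust moderation (350) and normalization within the Cs arrays (346), the latter also chosen after seeing the data, stayed within 1.5 times. The replicate number as a block in place of batch gave 33 calls, and the numbers did not pair the hearts. The slope over dose had 114 calls, 327 without replicate 4 and 21 with it in batch 2.

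Of 39 called genes named, none changed sign in the 27 other fits; the calls kept were 30 without replicate 4, 12 with it in batch 2, 8 without 40 cGy replicate 2, 2 with aligned medians, and 0 with the values as deposited or the 2 groups alone. The cause of these shifts was not tested. With 4 and 5 hearts, all 160 cGy hearts in the same labelled batch and many calls near background, the count is known only within this range, and signal at or below the negative controls limits what the dim genes show.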
